A study of Mus musculus with 9 samples.

Results

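The integrin genes described here were 10 chains with which fibroblasts and related cells bind the extracellular matrix, listed by name and not by a threshold on any measured value: Itga1, Itga2, Itga4, Itga5, Itga8, Itga11, Itgav, Itgb1, Itgb3 and Itgb5. The list was chosen with earlier results of these data known. All 10 were measured, each by 1 probe set carrying that gene symbol alone, among 19938 genes on the array. The RNA came from mouse embryonic fibroblasts (MEFs) with mutations in the endoplasmic reticulum enzymes that introduce disulfide bonds into new secreted and membrane proteins, and the design asks how transcripts differ between mutant and wild-type cells. There were 9 arrays, 3 for each of 3 genotypes.

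Triple mutant (TM) MEFs carried mutations in both thiol oxidase genes, Ero1α (Ero1a) and Ero1β (Ero1b), and lacked the peroxidase gene Prdx4. Double mutant (DM) MEFs carried both Ero1 mutations with Prdx4 intact. The reference cells were labelled wild type (WT). In the study's account of MEF isolation, every genotype including the controls was m/m for Ero1β, where m stands for the mutant allele. At Ero1α, TM and DM were m/m and controls m/+, and Prdx4 was m/y in TM, where y is the Y chromosome, and +/+ in DM and controls. If the arrayed WT cells were those controls, the Ero1β mutation was common to all 3 genotypes, and the label wild type does not settle this. Prdx4 is X-linked, and the study's table of progeny writes +/+ for females and +/y for males. Xist, which only cells with an inactive X chromosome express, lay at 5.65 to 5.76 in WT, 5.64 to 5.83 in TM and 12.5 to 12.63 in DM arrays. WT arrays were thus low in Xist like TM arrays, although the account writes DM and controls alike as +/+. Whether the arrayed WT cells were those controls was not tested. The labels describe all samples as transformed with T antigen on a C57B/L6 background. The study's methods speak of both primary and immortalized MEFs without saying which were arrayed. They assign primary MEFs to the figure on MEF morphology and DNA content, and immortalized MEFs to later figures. The array results are shown in a supplementary figure related to the one on morphology. That placing points to primary cells, against the label, and the state of the arrayed cells is not settled. No source says whether the 3 RNA samples per genotype were separate cultures or embryos. The spread behind each p-value is therefore that of the 3 arrays, possibly technical only, and a difference between genotypes cannot be told apart from a difference between MEF isolates.

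Integrins are receptors made of 1 α and 1 β chain that span the cell membrane, hold matrix proteins outside the cell and connect through adaptor proteins to the actin cytoskeleton. The α chain largely sets which ligand is bound. Itgb1 encodes the β1 chain, which pairs with many α chains, among them the collagen receptors α1, α2 and α11, the fibronectin receptors α4 and α5, and α8, while αv pairs with β1, β3 or β5 to bind proteins with the Arg-Gly-Asp motif such as fibronectin and vitronectin. Integrins are rich in disulfide bonds and are folded and paired in the endoplasmic reticulum before they reach the surface. The values below are RNA levels and do not show how much receptor was paired or displayed.

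The integrin transcripts moved in opposite directions within the family and differently in the 2 mutants. Itga1 and Itga11, both collagen receptor chains, rose in TM and in DM cells relative to WT, and Itga4 fell in both. Itga8 rose in TM cells alone by call, Itga2 fell in DM cells alone by call, and for each of these genes the TM to DM difference passed the test too. The chains Itga5, Itgav, Itgb1, Itgb3 and Itgb5 passed the call in no comparison. Here and below, a gene was called where its adjusted p (limma, Benjamini-Hochberg over 19938 genes) was under 0.05 and the difference exceeded 1.5-fold, and levels are log2 RMA values, so that 1 unit is a doubling. In TM against WT cells 4 of the 10 integrins were called, against 9.15% of all genes, with 3 higher (5.59% of all genes) and 1 lower (3.56%). In DM against WT cells 4 were called, against 10.9% of all genes, with 2 higher (5.28%) and 2 lower (5.67%). In TM against DM cells 3 were called, against 8.29% of all genes, all of them higher (4.68%), and 0 were lower (3.61%), also at an unadjusted p under 0.05 in limma and by the methods' t-test with the same fold limit. Since the 10 genes were chosen with earlier results of these data known, the shares of all genes stand beside their counts as description, not as a test. The comparisons of TM and DM with WT share the WT arrays and are not independent. In bulk RNA such as this, fewer cells of a type and less RNA per cell cannot be told apart.

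**Figure D1:**
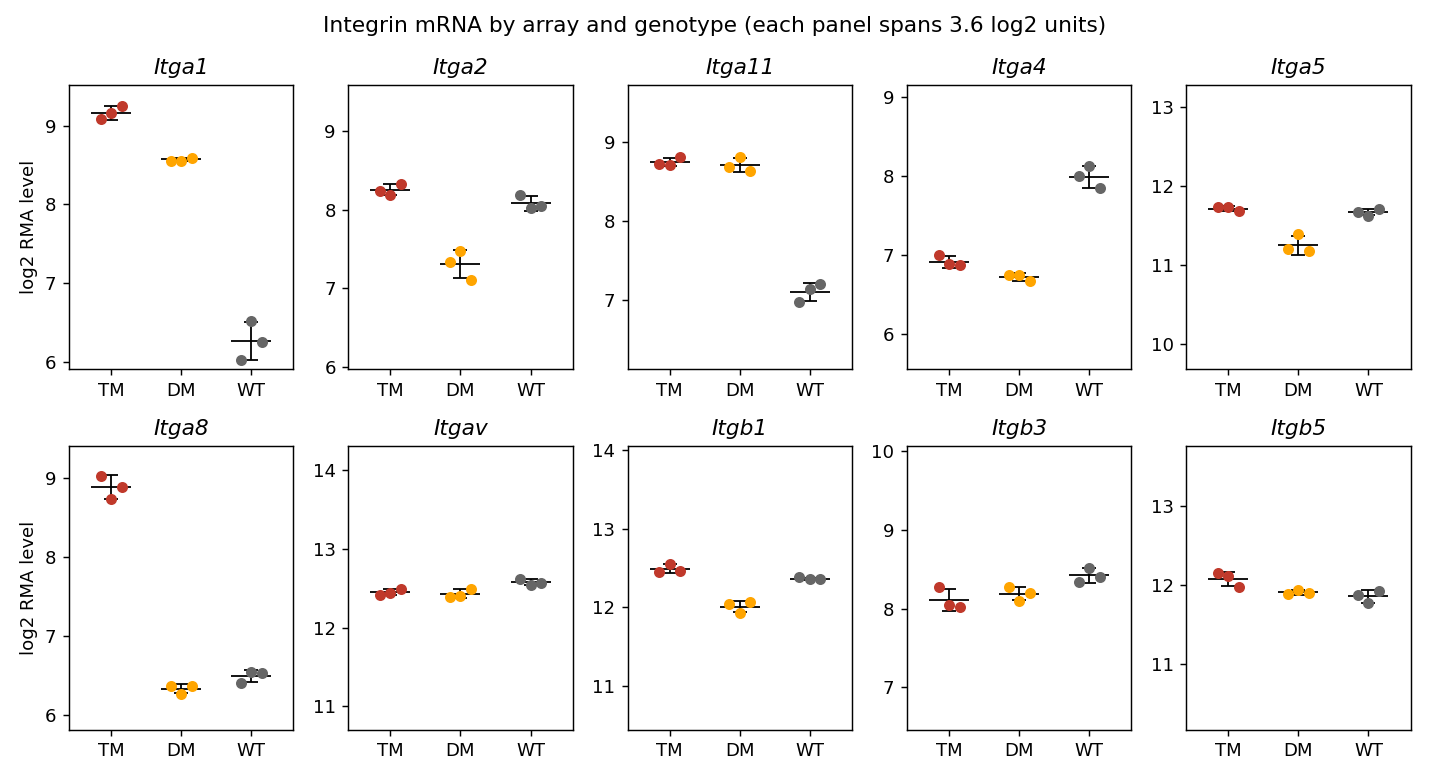
Levels of the 10 integrin transcripts on each array, as log2 RMA values on the vertical axis, with TM, DM and WT from left to right, points for the 3 arrays and bars for the mean and SD. Itga1, Itga11 and Itga4 separate both mutants from WT, whereas Itga8 separates TM from both other genotypes and Itga2 is lower in DM than in both others.

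The sequences before the start sites of the 4 genes whose levels moved most against WT are shown because these transcripts split into 3 patterns, with Itga1 and Itga11 high in both mutants, Itga4 low in both and Itga8 high in TM. Each run is the 250 bases upstream of the RefSeq start in the mouse build GRCm38.p6, written 5′ to 3′ along the gene's strand. They lie at chr13:115101965-115102214 on the minus strand for Itga1, chr9:62677605-62677854 on the plus strand for Itga11, chr2:12301945-12302194 on the minus strand for Itga8 and chr2:79255176-79255425 on the plus strand for Itga4. Capitals mark matches to the motifs searched, on either strand.
Itga1: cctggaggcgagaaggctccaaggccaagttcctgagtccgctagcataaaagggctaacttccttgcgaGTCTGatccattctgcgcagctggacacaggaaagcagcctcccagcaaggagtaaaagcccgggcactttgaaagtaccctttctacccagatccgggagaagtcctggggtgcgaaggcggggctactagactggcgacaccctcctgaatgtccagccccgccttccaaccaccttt
Itga11: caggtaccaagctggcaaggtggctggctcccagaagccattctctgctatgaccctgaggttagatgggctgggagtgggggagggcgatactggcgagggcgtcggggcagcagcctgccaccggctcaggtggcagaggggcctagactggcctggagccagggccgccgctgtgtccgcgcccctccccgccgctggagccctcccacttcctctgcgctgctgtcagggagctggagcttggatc
Itga8: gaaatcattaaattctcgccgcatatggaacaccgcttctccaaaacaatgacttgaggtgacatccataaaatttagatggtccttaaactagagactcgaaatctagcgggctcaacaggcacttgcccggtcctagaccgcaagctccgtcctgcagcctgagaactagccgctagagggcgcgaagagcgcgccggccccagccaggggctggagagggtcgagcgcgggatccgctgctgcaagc
Itga4: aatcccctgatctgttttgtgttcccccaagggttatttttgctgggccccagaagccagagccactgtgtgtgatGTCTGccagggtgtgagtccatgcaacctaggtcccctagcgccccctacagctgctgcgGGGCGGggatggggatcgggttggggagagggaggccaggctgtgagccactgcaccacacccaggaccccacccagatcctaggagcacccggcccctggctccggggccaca
The motifs were the GC box (GGGCGG), the CCAAT box (CCAAT), AP-1 (TGANTCA), a SMAD element (CAGAC), TEAD (GGAATG) and the CArG box, the element read by serum response factor. The Itga1 run held 1 match to the SMAD element, the Itga4 run held 1 to it and 1 to the GC box, and those of Itga11 and Itga8 held none of the 6 motifs. No match shared a base with another in these 4 runs. Among 32851 mouse promoter windows of the same length, 32.7% held a GC box, 33.8% a CCAAT box, 6.75% AP-1, 42.2% the SMAD element, 12.6% TEAD and 1.47% a CArG box. Windows were matched for 9 of the 10 integrins, without Itgb3, and the AP-1, CCAAT and CArG motifs had 0 matches in all 9. The GC content was 57.6% for Itga1, 68.4% for Itga11, 56.4% for Itga8 and 64.0% for Itga4, against a median of 52.4% over all windows.

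Among the collagen receptor chains, Itga1, the α chain of the α1β1 receptor that prefers basement membrane collagen, had the widest spread of levels over the 9 arrays. Its level was 9.08, 9.16 and 9.25 in TM cells, 8.55, 8.55 and 8.59 in DM cells, and 6.03, 6.52 and 6.25 in WT cells. The 3 genotypes did not overlap, and TM stood highest. Itga1 was 7.42-fold higher in TM than in WT cells, a difference of 2.89 (SE 0.0999, adjusted p = 2.65e-10), and 4.91-fold higher in DM than in WT cells, a difference of 2.30 (adjusted p = 1.88e-09). Between the mutants it was 1.51-fold higher in TM than in DM cells, a difference of 0.60 (adjusted p = 0.000541) that lay just above the 1.5-fold limit of 0.585. That call was lost when TM replicate 3 was left out, with a difference of 0.55 and an adjusted p of 0.00442. The file gives no detection calls, so whether the WT level stood above the background of the array is not known. Pelo, a ribosome rescue factor whose gene lies within Itga1 in the RefSeq annotation, was not called, with differences of 0.076 for TM against WT (adjusted p = 0.434) and 0.075 for DM against WT (adjusted p = 0.393).

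Itga11, the α chain of the fibrillar collagen receptor α11β1 found chiefly on mesenchymal cells, was high to the same degree in both mutants. Its level was 8.72, 8.71 and 8.81 in TM cells, 8.69, 8.81 and 8.63 in DM cells, and 6.97, 7.14 and 7.20 in WT cells. Every mutant array lay above every WT array, and the TM and DM arrays overlapped. It was 3.13-fold higher in TM than in WT cells, by 1.65 (SE 0.0726, adjusted p = 2.43e-09), and 3.04-fold higher in DM than in WT cells, by 1.60 (adjusted p = 2.77e-09). The TM to DM difference was 0.043, with a 95% interval of -0.12 to 0.20 (adjusted p = 0.686), so a difference of more than 0.20 on the log2 scale lay outside the interval. In the promoter windows above, the Itga11 run carried none of the motifs and the highest GC content of the 4.

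Itga2, the α chain of the collagen and laminin receptor α2β1, showed the opposite of Itga11 in DM cells. Its level was 8.24, 8.18 and 8.32 in TM cells, 7.34, 7.47 and 7.11 in DM cells, and 8.19, 8.02 and 8.04 in WT cells. The DM arrays lay below all others, and the TM and WT arrays overlapped. Itga2 was 1.71-fold lower in DM than in WT cells, a difference of -0.77 (SE 0.088, adjusted p = 1.61e-05). It was 1.92-fold higher in TM than in DM cells, by 0.94 (adjusted p = 3.58e-06). The TM to WT difference was 0.16, with a 95% interval of -0.03 to 0.36 (adjusted p = 0.198). Of the 3 collagen receptor α chains among the 10, Itga1 and Itga11 were thus higher in both mutants than in WT cells. Itga2 differed from WT by call in DM cells alone, where it was lower.

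Of the α chains that bind fibronectin and related proteins, Itga8 had the largest change outside the collagen receptors. The α8β1 receptor binds nephronectin, fibronectin and tenascin-C and is known from kidney development and from smooth muscle and other contractile mesenchymal cells. The level of Itga8 was 9.03, 8.73 and 8.89 in TM cells, 6.36, 6.26 and 6.36 in DM cells, and 6.40, 6.54 and 6.53 in WT cells. The TM arrays stood apart from the other 6, and the DM arrays lay just below the WT arrays without overlap. Itga8 was 5.28-fold higher in TM than in WT cells, by 2.40 (SE 0.0776, adjusted p = 1.5e-10), and 5.9-fold higher in TM than in DM cells, by 2.56 (adjusted p = 8.89e-11). In DM against WT cells the difference was -0.16, with a 95% interval of -0.33 to 0.01 (adjusted p = 0.136). As for Itga1 in WT cells, whether the DM and WT levels of Itga8 stood above the background of the array is not known.

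Itga4, whose product forms with β1 the receptor for Vcam1 and for an alternatively spliced part of fibronectin, was the only one of the 10 called lower in both mutants. Its level was 7.00, 6.88 and 6.87 in TM cells, 6.75, 6.75 and 6.67 in DM cells, and 8.00, 8.13 and 7.85 in WT cells. All mutant arrays lay below all WT arrays, and the TM arrays lay above the DM arrays. Itga4 was 2.11-fold lower in TM than in WT cells, with a difference of -1.08 (SE 0.0738, adjusted p = 1.65e-07), and 2.41-fold lower in DM than in WT cells, with a difference of -1.27 (adjusted p = 3.13e-08). The TM to DM difference of 0.19 had a 95% interval of 0.03 to 0.35 and an adjusted p of 0.0708.

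Itga5, the α chain of the main fibronectin receptor α5β1, changed little in size. Its level was 11.73, 11.73 and 11.68 in TM cells, 11.20, 11.39 and 11.17 in DM cells, and 11.67, 11.62 and 11.71 in WT cells. As for Itga2, the DM arrays lay below all others while TM and WT arrays overlapped. The difference was -0.41 for DM against WT (SE 0.0663, adjusted p = 0.000292) and 0.46 for TM against DM (adjusted p = 0.000157), both past the p threshold and short of 1.5-fold. For TM against WT it was 0.048, with a 95% interval of -0.10 to 0.19 (adjusted p = 0.672).

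Itgav, the α chain shared by the vitronectin-binding receptors, had levels of 12.41, 12.44 and 12.49 in TM cells, 12.39, 12.40 and 12.49 in DM cells, and 12.61, 12.54 and 12.57 in WT cells. Both mutants lay below WT on every array and overlapped with each other. The differences were small, at -0.13 for TM against WT (95% interval -0.25 to -0.01, adjusted p = 0.109), -0.15 for DM against WT (95% interval -0.27 to -0.03, adjusted p = 0.0544) and 0.021 for TM against DM (95% interval -0.10 to 0.14, adjusted p = 0.799).

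The β chains Itgb1, Itgb3 and Itgb5 stayed within 1.5-fold in every comparison. Itgb1, the shared partner of the collagen and fibronectin receptor α chains above, had levels of 12.45, 12.55 and 12.46 in TM cells, 12.04, 11.93 and 12.07 in DM cells, and 12.38, 12.36 and 12.36 in WT cells. The DM arrays were the lowest, and no genotype overlapped with another. The difference was -0.35 for DM against WT (SE 0.0582, adjusted p = 0.000412) and 0.47, or 1.39-fold, for TM against DM (adjusted p = 4.05e-05), neither reaching the fold limit. For TM against WT it was 0.13 (95% interval 0 to 0.25, adjusted p = 0.128), so the partner chain stayed within 0.25 of its WT level on the log2 scale by that interval while Itga1, Itga11 and Itga8 rose.

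Itgb3, the β chain of αvβ3, had levels of 8.27, 8.04 and 8.02 in TM cells, 8.27, 8.09 and 8.20 in DM cells, and 8.34, 8.52 and 8.40 in WT cells. Both mutants lay below WT on every array, at -0.31 in TM (95% interval -0.49 to -0.13, adjusted p = 0.0104) and -0.23 in DM (95% interval -0.41 to -0.06, adjusted p = 0.0401). These differences passed the p threshold but not the fold limit, and TM and DM overlapped, at a difference of -0.077 (adjusted p = 0.499). Itgb5, the β chain of αvβ5, had levels of 12.15, 12.12 and 11.98 in TM cells, 11.89, 11.94 and 11.90 in DM cells, and 11.88, 11.77 and 11.93 in WT cells. The TM arrays lay above both other genotypes, which overlapped with each other. The difference was 0.22 for TM against WT (95% interval 0.08 to 0.37, adjusted p = 0.0205), 0.052 for DM against WT (adjusted p = 0.586) and 0.17 for TM against DM (adjusted p = 0.0679).

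Without the fold limit, 6 integrins passed the adjusted p threshold in TM against WT (31.8% of all genes), 7 in DM against WT (36.8%) and 5 in TM against DM (31.8%). The arrays of the compared genotypes did not overlap for 8 integrins in TM against WT (43.4% of all genes), for 9 in DM against WT (46.4%) and for 7 in TM against DM (40.1%). Among the integrins not called, no difference exceeded 0.31 for TM against WT, 0.41 for DM against WT or 0.47 for TM against DM. The median log2 fold change of the 10 was 0.15 in TM against WT, -0.20 in DM against WT and 0.33 in TM against DM, beside medians over all genes of -0.029, 0.025 and -0.046 in the same comparisons.

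**Figure D2:**
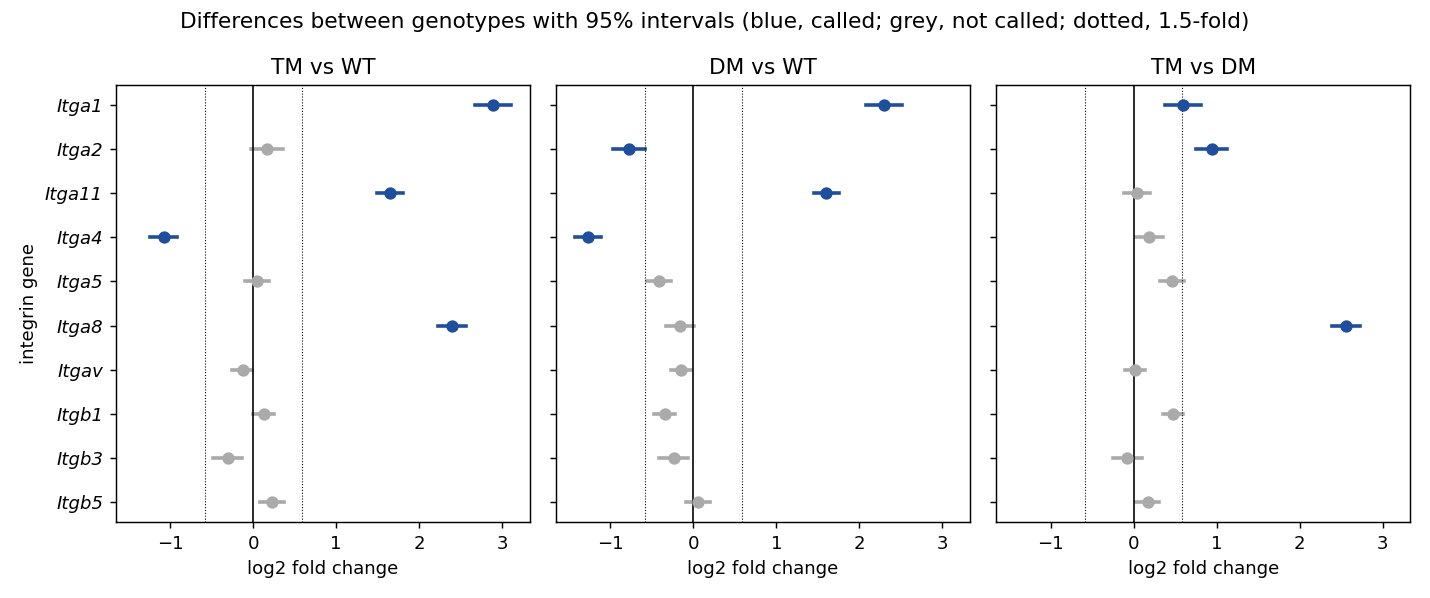
Log2 fold changes of the 10 integrins for TM against WT, DM against WT and TM against DM, with 95% intervals as bars and the 1.5-fold limits as dotted lines. Itga1, Itga11 and Itga8 lie beyond the upper limit in TM against WT at 2.89, 1.65 and 2.40, Itga4 lies beyond the lower limit at -1.08, and the β chains stay within the limits in all 3 comparisons.

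Over the 9 arrays some integrins followed each other in level. Pearson's r was 0.98 between Itga1 and Itga11, 0.97 between Itga2 and Itga5, 0.91 between Itga2 and Itgb1, -0.93 between Itga1 and Itga4 and -0.98 between Itga11 and Itga4. These are descriptions over arrays that fall into 3 genotypes, which any genes differing between the genotypes share, and they carry no test. Across all genes, those with a pattern most like Itga1 were Grb14 (r = 0.996), an adaptor of the insulin receptor, Npr3 (r = 0.996), the natriuretic peptide clearance receptor, and Boc (r = 0.996), a hedgehog co-receptor, and 99 genes exceeded 0.98. Those most like Itga8 were Hoxa3 (r = 0.999), a homeobox transcription factor, Sash1 (r = 0.998), a scaffold protein, and Cnn1 (r = 0.998), the smooth muscle actin-binding protein calponin, and 116 genes exceeded 0.98.

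Among the integrin chains outside these 10, Itga6, Itga7 and Itgb7 fell in both mutants, and Itga3 and Itgb8 fell in TM cells. Over all genes the shares called higher and lower were 5.59% and 3.56% in TM against WT. They were 5.28% and 5.67% in DM against WT, and 4.68% and 3.61% in TM against DM. Of 16 other chains measured, 0 were called higher in TM against WT and 5 lower (median 0), 0 higher and 3 lower in DM against WT (median 0.03), and 1 higher and 2 lower in TM against DM (median -0.02). With arrays centred on their medians or quantile normalized, the 1 higher in TM against DM became 2, and Itga7 lay at 0.58 in that comparison, just under the fold limit. The counts of 0 were the same at an unadjusted p under 0.05 in limma and by the methods' t-test with the same fold limit. The laminin receptor chain Itga6 changed most, with levels of 9.40, 9.46 and 9.68 in TM cells, 8.50, 8.36 and 8.69 in DM cells, and 11.43, 11.37 and 11.37 in WT cells. The 3 genotypes did not overlap, and WT was highest. Its difference was -1.87 in TM against WT (SE 0.09, adjusted p = 5.39e-09), -2.87 in DM against WT (adjusted p = 8.19e-11) and 1.00 in TM against DM (adjusted p = 2.51e-06). Itga7, another laminin receptor chain, fell by 0.99 in TM (adjusted p = 1.62e-06) and by 1.57 in DM cells (adjusted p = 1.72e-08), and Itga3, a laminin receptor chain, fell by 1.16 in TM cells (adjusted p = 1.65e-07) and had a difference of -0.25 in DM against WT, which was not called. Itgb7, a leukocyte β chain that pairs with α4, fell by 0.68 in TM and by 0.73 in DM cells, and Itgb8, an αv partner that binds latent TGF-β, fell by 0.65 in TM cells against WT and by 0.80 in TM against DM cells. The laminin receptor β chain Itgb4 was not called, at 0.09 in TM and 0.11 in DM against WT, nor was the collagen receptor chain Itga10, at -0.16 in TM and 0.09 in DM.

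Ligands of the integrins included periostin and nephronectin, which were highest in TM cells, and several that fell in DM cells. Of 28 measured, 8 were higher and 1 lower in TM against WT (median 0.16), 4 higher and 5 lower in DM against WT (median -0.07), and 10 higher and 2 lower in TM against DM (median 0.11). Shares of all genes higher and lower were 5.59% and 3.56% in TM against WT. In DM against WT they were 5.28% and 5.67%, and in TM against DM 4.68% and 3.61%. Periostin (Postn), a matricellular ligand of αv integrins, had levels of 9.96, 9.75 and 10.02 in TM cells, 8.79, 8.89 and 9.03 in DM cells, and 6.70, 6.68 and 6.75 in WT cells. It was the largest riser of the list in both mutants, by 3.20 in TM (adjusted p = 1.64e-11) and 2.20 in DM against WT (adjusted p = 3.59e-10). Nephronectin (Npnt), the ligand known for α8β1, had levels of 11.11, 11.11 and 11.10 in TM cells, 9.91, 9.94 and 9.49 in DM cells, and 9.37, 9.19 and 9.21 in WT cells. Like Itga8 it was highest in TM, by 1.85 against WT (adjusted p = 2.65e-08) and 1.32 against DM (adjusted p = 7.46e-07), and in DM against WT its difference of 0.53 fell short of the fold limit (adjusted p = 0.00147).

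Other ligands divided the mutants. The laminin α4 chain Lama4 rose by 1.99 in TM (adjusted p = 3.26e-10) and fell by 0.69 in DM cells against WT (adjusted p = 6.23e-06), and the laminin α2 chain Lama2 rose by 1.27 in TM cells (adjusted p = 5.95e-07). Tenascin-C (Tnc), bound by α8 and αv integrins, rose by 0.76 in TM (adjusted p = 4.24e-07) and fell by 1.15 in DM cells against WT (adjusted p = 7.12e-09). The αv ligand Edil3 fell by 2.61 in DM against WT (adjusted p = 2.79e-11), the collagen I chain Col1a2 fell by 1.71 (adjusted p = 1.1e-09), and neither was called in TM against WT. The other collagen I chain, Col1a1, was called in no comparison, with differences of 0.03 for TM and 0.53 for DM against WT. Vcam1, the cell-surface ligand of α4β1, had levels of 11.80, 11.91 and 11.90 in TM cells, 12.30, 12.23 and 12.32 in DM cells, and 11.47, 11.52 and 11.47 in WT cells. It was higher in DM than in WT cells by 0.80 (adjusted p = 2.27e-07), where Itga4 was lower, and in TM against WT its difference of 0.38 was not called. Fibronectin (Fn1), the ligand of α4, α5, α8 and αv receptors, was not called, with differences of 0.20 for TM and 0.30 for DM against WT.

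**Figure D3:**
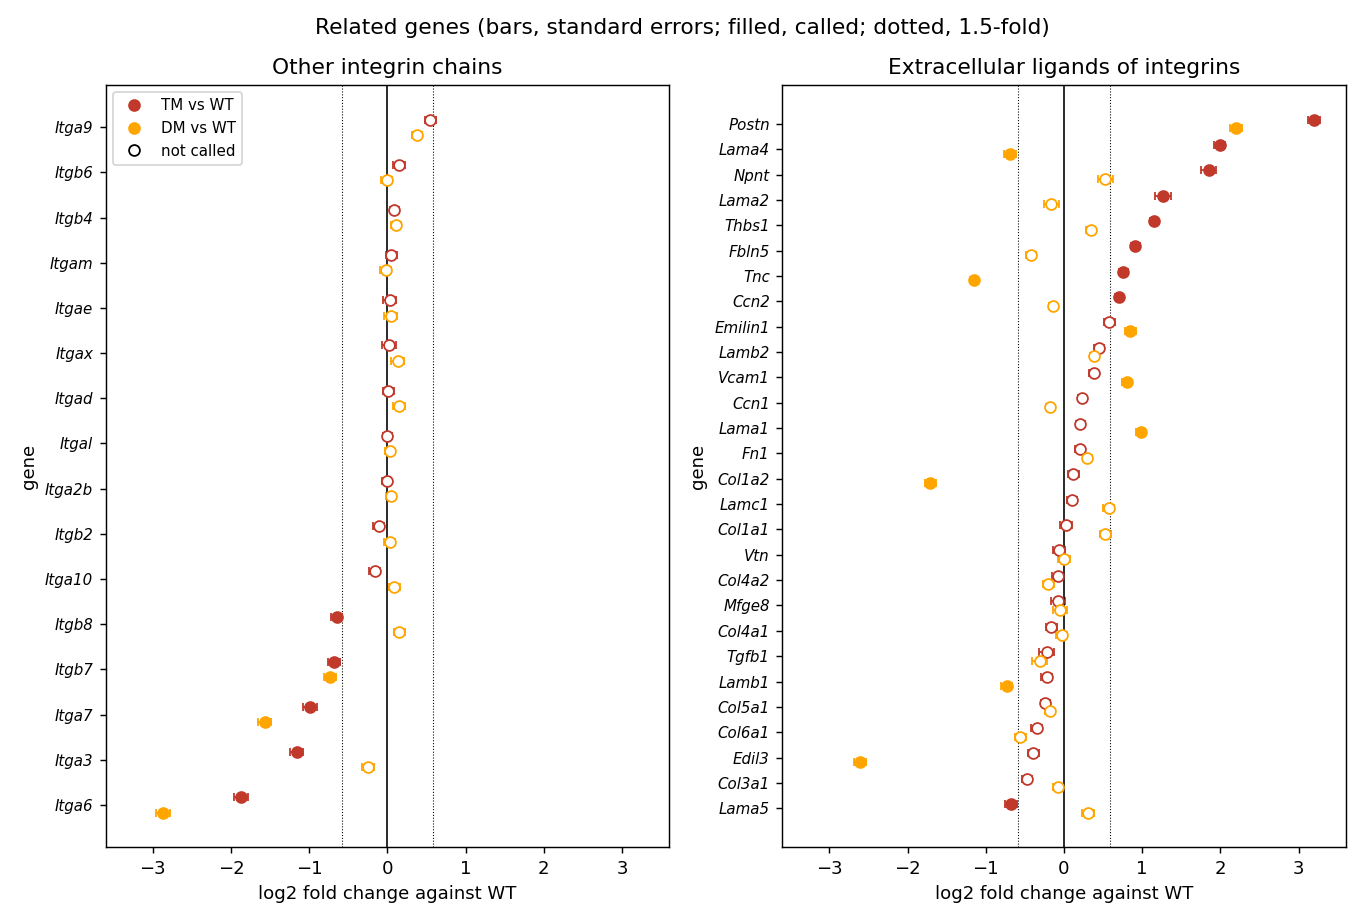
Log2 fold changes against WT of the other integrin chains (left) and the extracellular ligands (right), with TM and DM as separate points, standard errors as bars, filled points for called differences and dotted lines at 1.5-fold. Itga6 lies lowest among the chains in both mutants, at -1.87 in TM and -2.87 in DM, and Postn lies highest among the ligands, at 3.20 in TM and 2.20 in DM.

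Of 30 measured transcripts for adhesion complex proteins inside the cell, 3 were higher and 3 lower in TM against WT (median 0.06), 2 higher and 3 lower in DM against WT (median -0.06), and 4 higher and 3 lower in TM against DM (median 0.08). Ptk2 and Nedd9, of the 32 listed, were not among the genes measured. For this and the next lists, all genes gave 5.59% higher and 3.56% lower in TM against WT. They gave 5.28% and 5.67% in DM against WT, and 4.68% and 3.61% in TM against DM. The adhesion kinase Ptk2b fell by 1.76 in TM (adjusted p = 7.07e-10) and fell by 1.16 in DM cells (adjusted p = 3.28e-08), and the kinase Src had differences of -0.83 in TM and -0.80 in DM against WT, both called. The tensin Tns3 rose in both mutants, by 0.83 in TM (adjusted p = 9.72e-07) and by 0.97 in DM against WT (adjusted p = 2.09e-07), and the parvin Parvb, which joins the kinase Ilk at adhesions, fell by 0.84 in DM against WT (adjusted p = 1.31e-06). The adaptor Lims2 rose by 1.39 in TM against WT (adjusted p = 3.01e-08), and the tensin Tns1, which links integrin tails to actin, rose by 1.22 in DM against WT (adjusted p = 7.86e-09). The paxillin gene Pxn fell by 0.87 in TM against WT and its relative Tgfb1i1 rose by 0.66. With arrays centred on their medians the count higher in TM against WT was 2. Of 13 matrix receptors other than integrins, 0 were called in either direction in TM against WT. In DM against WT 1 of them was higher, Bcam at 0.69, and 3 were lower. The lower ones were the syndecan Sdc2 at -1.12, the hyaluronan receptor Cd44 at -0.90 and Ddr2 at -0.59, close to the fold limit. In TM against DM 3 were higher, Sdc2 at 0.99, Cd44 at 0.90 and Ddr2 at 0.63, and 0 lower. Of 11 membrane partners, 2 were lower in TM against WT, the tetraspanins Cd9 at -1.31 and Cd151 at -0.79, and in DM against WT 1 was higher and 2 were lower, with Cd9 at -1.43, the urokinase receptor Plaur at -1.38 and Cd47 at 1.06. In TM against DM 1 partner was higher and 3 were lower. Counts of 0 in these lists were the same at an unadjusted p under 0.05 in limma and by the methods' t-test with the fold limit.

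Markers of cell types moved with the genotypes as well. The arrays of a genotype correlated at 0.994 to 0.997 over all genes, and those of different genotypes at 0.976 to 0.984. Of the mutated genes, Ero1a had log2 fold changes of -2.80 in TM and -2.40 in DM against WT, Prdx4 of -4.26 in TM and 0.12 in DM, and Ero1b, which was not called, of 0.29 in TM and 0.055 in DM. Vim, the mesenchymal filament gene, had means of 14.15 in TM, 14.16 in DM and 14.18 in WT cells, and the 10 fibroblast markers averaged 10.65 to 10.75 per array in TM, 9.74 to 9.77 in DM and 9.82 to 9.86 in WT cells, with 5 higher and 0 lower in TM against WT and 2 higher and 2 lower in DM against WT. The 9 smooth muscle and pericyte markers averaged 10.10 to 10.17 in TM, 8.75 to 8.87 in DM and 9.07 to 9.13 in WT cells, with 4 higher and 0 lower in TM against WT and 0 higher and 2 lower in DM against WT, the risers in TM including Cnn1 by 3.47, while Myh11 and Des, which define mature muscle, were not called. This order, TM above WT above DM, was also that of the fibroblast marker averages and of the means of Itga8, Itga2, Itga5 and Itgb1. For Itga8 the DM to WT difference of -0.16 was not called (adjusted p = 0.136). For Itga2, Itga5 and Itgb1 the TM to WT differences of 0.16, 0.048 and 0.13 were not called (adjusted p = 0.198, 0.672 and 0.128). The DM to WT differences of Itga5 (-0.41) and Itgb1 (-0.35) fell short of the fold limit. The 6 mesothelial markers averaged 7.27 to 7.40 in TM, 11.07 to 11.20 in DM and 8.27 to 8.33 in WT cells. They had 0 higher and 2 lower in TM against WT and 4 higher and 1 lower in DM against WT. Those higher in DM, where Itga2, Itga5 and Itgb1 were lowest, included Upk1b by 5.57 and Wt1 by 4.05. Msln went the other way and was highest in WT cells, with means of 11.34 in WT, 9.91 in DM and 7.73 in TM cells. Its differences against WT of -1.43 in DM and -3.61 in TM were both called. Krt19 was called lower in TM, at -1.81, and was not called in DM, at -0.40. The 7 epithelial markers averaged 7.19 to 7.31 in TM, 7.91 to 8.05 in DM and 7.27 to 7.32 in WT cells, with 0 called in TM against WT and 3 higher in DM against WT. Of the 8 leukocyte and 7 endothelial markers 0 were called in all comparisons. These and the other counts of 0 among markers were the same at an unadjusted p under 0.05 in limma and by the methods' t-test with the fold limit. Beside the marker counts, 5.59% of all genes were higher and 3.56% lower in TM against WT. The shares were 5.28% and 5.67% in DM against WT, and 4.68% and 3.61% in TM against DM. The 4 platelet markers averaged 7.31 to 7.34 in TM, 6.87 to 7.02 in DM and 7.43 to 7.49 in WT cells, with 0 called in TM against WT and 0 higher and 1 lower in DM against WT. The one lower was Ppbp, at -2.25, while Pf4 (0.03), Gp9 (0.11) and Itga2b (0.04) were not called. Xist, which only cells with an inactive X chromosome express, was 6.86 higher in DM than in WT cells and differed by 0.019 in TM against WT. Comparisons with DM therefore also set cells high in Xist against cells low in it. The part of the marker and Xist differences in the integrin results was not tested.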

How the data were processed

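Labelled cRNA made from the RNA of MEFs was hybridised to Affymetrix Gene ST1.0 arrays. The authors deposited log2 expression values per probe set, made by RMA (background correction, quantile normalization and a fit over probes). The build behind the probe annotation is not given in the sources consulted. Of 35556 probe sets, 21789 had 1 gene symbol, 1621 several and 12146 none listed. Identifiers of 21698 matched the RefSeq table of GRCm38.p6, and 0 symbols changed. Genes with several probe sets (999) were represented by the brightest over the 9 arrays, leaving 19938 genes. Each integrin had 1 probe set, and levels of different probe sets were not compared. Medians of the gene values lay between 8.00 and 8.12 per array. The number of arrays, 3 per genotype, limits the precision.

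The 3 genotypes were fitted together in R 4.3.3 by lmFit and eBayes of limma 3.58.1 (6 residual degrees of freedom, no covariates), with Benjamini-Hochberg adjustment over 19938 genes and a 1.5-fold limit. The fit was tested on simulated data for TM against WT over 19938 genes, where 100 of 100 genes changed by 1 and 100 of 100 changed by 2 on the log2 scale were called, with 0 false calls. The simulated noise was independent and normal at the spread within genotypes. It therefore does not bear on differences near the fold limit or on variation between MEF isolates. All 3 values were identical in TM for 226, in DM for 185 and in WT for 369 genes, and for 0 integrins.

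The integrins and the lists of related genes and markers were chosen with earlier results of these data known. The text names all 10 integrins, the 3 mutated genes, up to 4 called genes with the largest change per related list and comparison, and, for the 2 integrins with the largest change, the 3 genes most alike over the arrays. The genes named beside these (markers, Pelo, Xist, Itgb8, Tgfb1i1, genes that were not called and further called ligands, adaptors and partners) were chosen after their values were seen. Alternatives were other scalings, filters, limits, variances, left-out arrays, a replicate block and the t-test named in the methods. Several listed genes were not analysed here.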

Additional observations from a re-analysis of the deposited data

How the results depend on the processing

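Of 528 integrin differences recomputed under alternatives, 523 kept their direction and their side of the threshold, 1 lost its call and 4 changed sign. Many of these differences could not change in size. Each integrin had 1 probe set, so the mean of all probe sets repeated its value. The compared arrays alone, other variances, the replicate block, the t-tests and the filter on level could change only the p-value. The same held where an array of the genotype not compared was left out. The lost call was Itga1 in TM against DM, at 0.55 without TM replicate 3. The sign changes concerned differences that were not called: Itga5 in TM against WT (-0.029) and Itgb5 in DM against WT (-0.038) with arrays centred on their medians, and Itgav in TM against DM with quantile normalization (-0.041) and without TM replicate 3 (-0.0019, the lowest of its values with 1 replicate left out, the highest being 0.051). Centring moved the median of all genes by at most 0.09 in size (-0.0901 in DM against WT). With genes under the median level left out, which removes Itga1, Itga2, Itga4 and Itga8, the calls were 1 in TM against WT (1 higher, 0 lower), 1 in DM against WT (1 higher, 0 lower) and 0 in TM against DM (0 higher). Without a fold limit, 2 integrins were lower in TM against WT, 7 were called in DM against WT (5 lower) and 5 in TM against DM (5 higher), and beyond 2-fold 1 was lower in DM against WT and 1 was called in TM against DM (1 higher). Over all genes, the 1824, 2183 and 1653 calls in TM against WT, DM against WT and TM against DM became 6338, 7340 and 6350 without a fold limit, and 781, 885 and 676 beyond 2-fold. Among the related lists, quantile normalization gave 2 in place of 1 higher in DM against WT both for the other matrix receptors and for the membrane partners, and the other integrin chains higher in TM against DM were 2 in place of 1 under both scalings. Leaving out each replicate in turn gave 4 to 4 calls in TM against WT (3 to 3 higher, 1 to 1 lower), 4 to 4 in DM against WT (2 to 2 higher, 2 to 2 lower) and 2 to 3 in TM against DM (2 to 3 higher, 0 to 0 lower). With the replicate number as a block the calls were 4, 4 and 3 in these comparisons, and all 30 differences kept their call. Deviations of same-numbered arrays correlated at -0.239 to 0.168, which shows no strong shared effect of the replicate number. These values cannot tell whether same-numbered samples were prepared together. Signal over background is not given in the file, so the limit for dim probe sets is not known.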
